A study of Salmo salar with 59 samples.

Results

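In Atlantic salmon males, npt2a, a gene annotated as a sodium-phosphate cotransporter, was read well above background in all 6 pubertal testes and in none of the 14 immature testes. It is 1 gene of 25270 that the array probes could be matched to in the RefSeq gene table of assembly Ssal_v3.1, where it lies on chromosome 9 with 4 transcripts, and 1 probe of 42386 carried its RefSeq transcript. The gene was selected on its measured signals in testis, pubertal against immature and along gonad size, and in the other tissues. Its levels in immature and pubertal testes and across tissues are therefore given as a description, with no test.

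Proteins of the SLC34 family, to which the mammalian NPT2A belongs, carry inorganic phosphate into cells together with sodium, driven by the sodium gradient that the sodium pump maintains. In mammals NPT2A sits in the brush border of the kidney proximal tubule, where it recovers phosphate from the filtrate, and parathyroid hormone and FGF23 lower its amount there. PDZ-domain scaffolds and ezrin hold it at the membrane. A second family, SLC20, supplies phosphate to most cell types.

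The fish were post-smolts kept for 18 weeks in brackish water of 20 ppt at 12.1 °C, under constant light (group A), increasing light (group B) or decreasing light (groups D and E), with the same feed in all groups except a low-fat diet in group E. Testes at stage I by the labels were taken as immature (2 fish of group A, 2 of B, 5 of D and 5 of E), and testes at stages III to V as pubertal (3 fish of A and 3 of B), so every pubertal fish had constant or increasing light. Each array held RNA of 1 tissue of 1 fish. Pituitaries came from the same 20 fish, and adipose tissue from 18 of them, with maturity taken from the testis stage. A further adipose array, labelled group E and fish 211, had no testis of that group and number and entered no group. An immature testis array titled fish 226 carries the number 236 in another label and is called fish 226 here.

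Between 51.1% and 86.6% of spots were well above background on an array. Markers stood out against the label on 3 arrays. The 6 pituitary markers (among them fshb, lhb, prl and pomca) summed to 997 to 2211 on the linear scale relative to the array's 75th percentile on 19 pituitary arrays and to 0.328 on the pituitary array of fish 184, which was left out of the pituitary fit. On the adipose array of fish 202 the 7 meiosis markers summed to 12.2, against 0.897 to 1.62 on the other 18 adipose arrays, and the 6 spermatogonial markers to 21.6, against 0.674 to 3.76. That array was kept in the adipose fit, and no alternative left it out. The pituitary markers summed to 64.0 on 1 immature adipose array, against a median of 0.364 in that group.

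All values of npt2a below are log2 signals relative to the array's 75th percentile, unless named as a processed signal (the scanner intensity after background subtraction). In the pubertal testes, ordered by rising gonadosomatic index (GSI, gonad weight relative to body weight), npt2a was at -1.48 in fish 184, -1.74 in fish 190, -2.88 in fish 213, -0.81 in fish 245, -1.68 in fish 211 and -1.92 in fish 202. The corresponding processed signals were 107, 45.8, 44.9, 157, 60.9 and 90.1. Every pubertal array was thus well above its background, at a mean of -1.75 ± 0.67 (SD, n = 6).

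In the 14 immature testes the measured values ran from -8.87 through a median of -8.44 to -6.03. None was well above background. In 13 of the 14 the background-subtracted signal was below 0, and the scanner software had put a processed signal between 0.902 and 1.48 in its place, so these 13 values have no order among themselves. The highest, in fish 160, was the only immature testis whose signal was positive and significant by the scanner's own test, at a processed signal of 7.21, with a spot median of 34 over a local background of 25. It was nevertheless not well above background, on an array where the lowest signal that was well above background was 8.84 and where 66.5% of spots were well above it, the lowest share among immature testes. The study notes that 2 of the immature fish, 160 and 250, may be seen as maturing by blood hormones and pituitary gene expression. By testis histology it places both nearer to immature males. The raised serum steroids were those of fish 160. The histology table gives fish 160 and 203 medium germinative compartments with tubules and high cell division. In fish 250 and 203 the background-subtracted signal of npt2a was -1.09 and -2.49.

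The groups did not overlap. The lowest pubertal testis (-2.88) lay above the lowest level well above background on every immature testis array (-5.22 at most). Since npt2a was never well above background in immature testes, its difference has only a lower bound. Each immature array was set to the higher of its own value and the lowest level well above background on that array. By this bound npt2a was 23.5-fold higher in pubertal testes (4.55 on the log2 scale), and the measured means differed by 6.45. The bound is approximate, since that level is the lowest over all probes and a single spot above it can fail. The npt2a spot did so on the pituitary array of fish 255, at -6.14 with a lowest level of -7.07. Of 42386 probes, 4 were well above background on all pubertal testes and on no immature testis (0.00944%). Besides npt2a these were probes of urah, which acts in the breakdown of uric acid, and of LOC106565240, with lower bounds of 2.83 and 1.65, and a probe with no gene in the table, at 1.43.

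The size of the difference, but not its direction, turned on how dim spots were treated. With normexp background correction and an offset of 50, which lifts dim spots towards a common level, the means differed by 1.33 and the lower bound was 1.30. In the authors' processed values, which hold npt2a for 3 immature and 6 pubertal testes, they differed by 4.02 and the lower bound was 3.84. Within the arrays of scan day 1 (11 immature and 5 pubertal) the difference was 6.24, and within those of scan day 4 (3 immature and 1 pubertal) 7.29. Among fish of light groups A and B, where both maturity classes occur, it was 6.09.

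**Figure D1:**
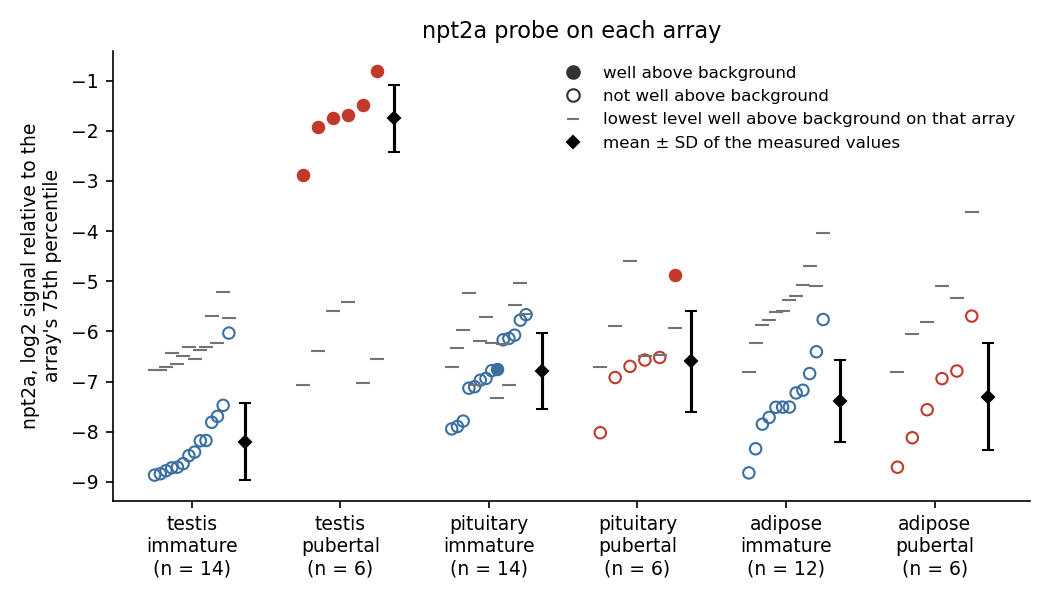
Level of npt2a on each array (log2 signal relative to the array's 75th percentile) by tissue and maturity, blue for immature and red for pubertal fish. Filled points are well above background, grey ticks give the lowest level well above background on the same array, and diamonds with bars give the mean ± SD of the measured values. The 6 pubertal testes lie between -2.88 and -0.81, above all other arrays.

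Among pubertal testes npt2a spanned 2.06 on the log2 scale, or 4.18-fold, and did not follow the order of GSI. The lowest value came from fish 213, the only pubertal testis labelled stage III. By the labels, the 4 stage IV testes ran from -1.74 to -0.81, and the stage V testis of fish 202, with the highest GSI, was at -1.92. The histology table differs from the labels in that fish 245 and 211 are at stage V there, by the most advanced cell type. Stage V then ran from -1.92 to -0.81, and stage IV held fish 184 and 190, at -1.48 and -1.74. Testes of light group A had a mean of -1.34 ± 0.48 and those of group B of -2.16 ± 0.63 (SD, n = 3 each), with overlapping ranges.

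Meiosis and spermatid markers divided the pubertal testes along GSI in a way that npt2a did not. In fish 184, 190 and 213 the 7 meiosis markers (such as sycp3 and spo11, which build and break the paired meiotic chromosomes) summed to 34.4 to 48.0, and in fish 245, 211 and 202 to 124 to 159. The 6 spermatid markers, mostly of the sperm flagellum, summed to 13.6 to 16.8 and to 47.9 to 79.2 in the same sets. The 16.8 came from fish 213, where the histology table lists no cell beyond spermatocytes, so this sum is not particular to spermatids. For npt2a these sets ran from -2.88 to -1.48 and from -1.92 to -0.81, and they overlapped. In immature testes the meiosis markers summed to 8.88 to 13.1 and the spermatid markers to 2.55 to 4.56. The sum of the 6 spermatogonial markers did not divide the pubertal testes. It was 207.5 to 310 in fish 184, 190 and 213 and 207.5 to 252 in fish 245, 211 and 202. In immature testes it was 86.3 to 137. This sum mostly follows its highest member, ddx4, at log2 means of 7.885 in pubertal and 6.627 in immature testes. Of the 6 markers tested 3 rose and 2 fell in pubertal testes, where 31.9% of all probes tested rose and 27.2% fell.

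Fish 160, the immature testis with the highest npt2a, had the highest meiosis sum of the immature testes, 13.1. The next was 12.7 in fish 226, and the lowest pubertal sum was 34.4. The spermatid sum of fish 160, 3.51, and its spermatogonial sum, 101, were inside the range of the other immature testes. The mean log2 level of its spermatogonial markers, -0.295, lay below the 0.0761 to 0.634 of the other immature testes. This testis had the highest sum of the 4 Leydig cell markers (genes of steroid synthesis and the receptor of luteinizing hormone), 60.2, against a median of 24.9 in immature testes and 3.69 to 13.8 in pubertal testes. Fish 160 stood further apart in the sum of the 7 adipose markers, 82.4 against 16.5 to 25.1 in the other 13 immature testes and 111 to 210 in pubertal testes. It did not in their mean log2 level, -1.48, inside the -1.74 to -1.19 of the others. A linear sum follows its highest member, here fabp4, a fatty acid binding protein. In testis fabp4 had means of 4.03 in immature and 7.06 in pubertal fish. Of the 5 probes of the list tested 1 rose and 3 fell, beside 31.9% and 27.2% of all probes. The 4 Sertoli cell markers, amh and inha among them, summed to 100 to 178 in immature and 16.6 to 69.4 in pubertal testes. The 6 leucocyte probes summed to 27.9 to 85.3 and to 2.67 to 8.85. In whole tissue, fewer cells of a type and less RNA per cell cannot be told apart. The part of these shifts in the npt2a difference was not tested.

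**Figure D2:**
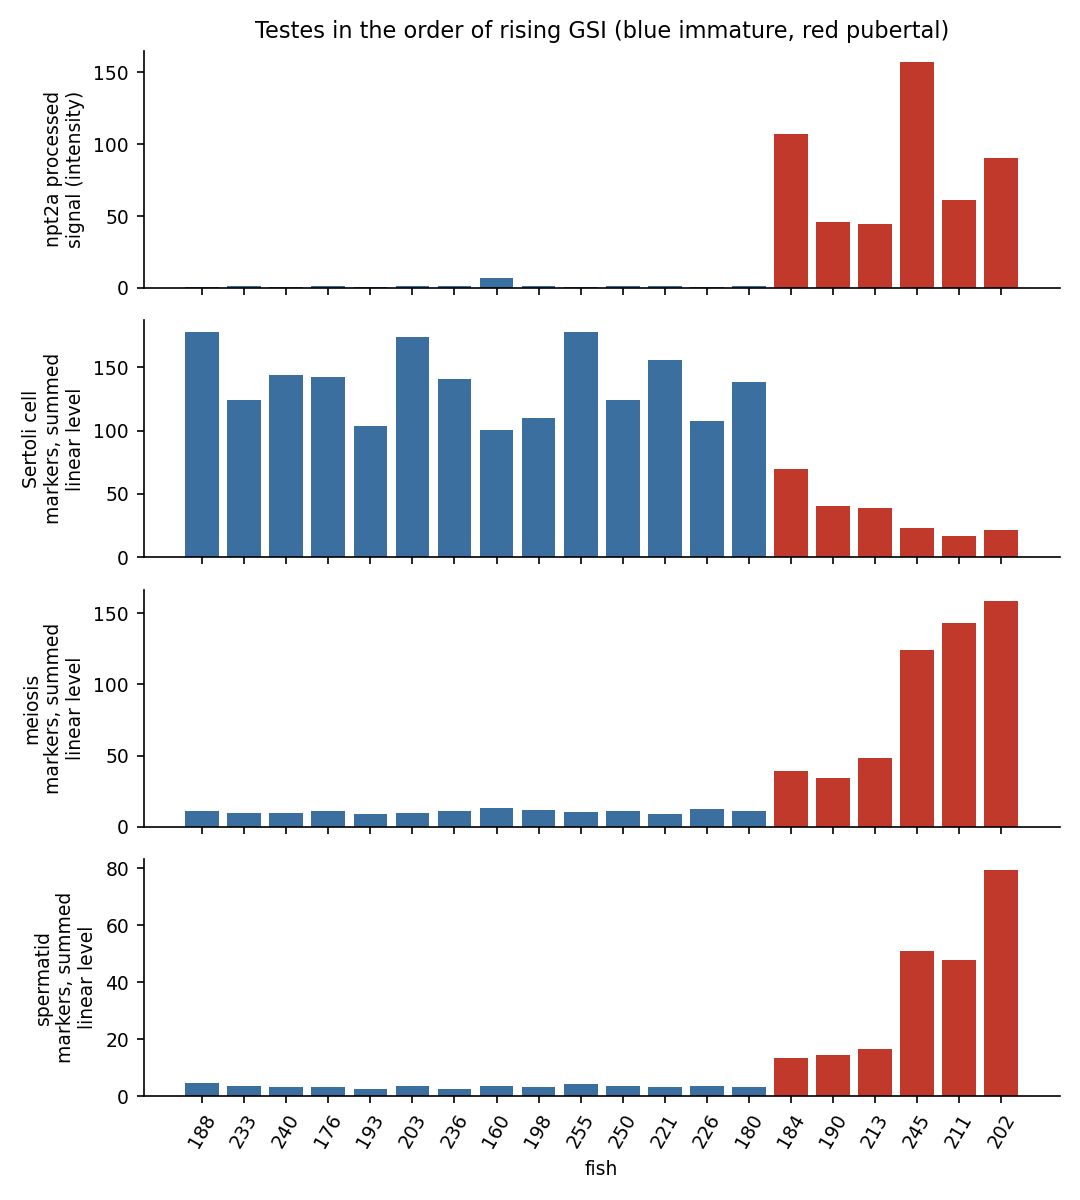
Processed signal of npt2a (top) and summed linear levels, relative to the array's 75th percentile, of Sertoli cell, meiosis and spermatid markers in the 20 testes, 1 bar per fish in the order of rising GSI. The 3 pubertal testes with the lowest GSI have npt2a signals of 45.8 to 107 with spermatid sums of 13.6 to 16.8, and the other 3 have signals of 60.9 to 157 with sums of 47.9 to 79.2.

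Kidney, where npt2a acts in mammals, was represented by 11 probes of tubule and podocyte genes. Their summed level was 1.07 to 2.42 in pubertal and 1.09 to 2.38 in immature testes, so the ranges overlapped almost entirely. The highest member was slc22a2, at log2 means of 0.077 in pubertal and -0.22 in immature testes, and the sum mostly follows that gene. The list was not particular to kidney, since it summed to 4.65 to 9.57 in immature pituitaries. The sum thus does not read kidney content, which was not tested. Of the 10 tested in testis, 1 was higher and 3 were lower in pubertal testes, with a median difference of 0.01, where 31.9% of all probes tested were higher and 27.2% lower. The proximal tubule glucose carrier slc5a2 and the water channel aqp3a were not well above background on any pubertal testis.

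In pituitary npt2a was near the limit of detection. It was well above background on 2 of 20 arrays, those of fish 233 (immature, -6.74, processed signal 5.75) and fish 190 (pubertal, -4.87, processed signal 9.18). The 14 immature pituitaries ran from -7.95 through a median of -6.86 to -5.67, and the 5 pubertal pituitaries, without fish 184, from -8.02 through -6.57 to -4.87. The groups overlapped over most of their range. The spot was positive and significant on 13 of 14 immature and 3 of 5 pubertal pituitaries, but with processed signals of 5.75 or less on every array except that of fish 190.

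Too few pituitary arrays measured npt2a for the probe to enter the test across probes, in which 106 of 34826 probes (0.304%) were called by limma (adjusted p under 0.05 with a log2 difference larger than 0.8 in size). All pubertal pituitaries and 6 of the 14 immature ones were scanned on day 1, and with scan day as a block 5 probes were called. Within light groups A and B, and also without fish 211, 2 were called. Arrays of different tissues share no calibration of total RNA, so the folds between tissues compare levels scaled to each array. Within a fish, the testis of all 6 pubertal males exceeded the pituitary, by approximate lower bounds of 8.09-fold (fish 213) to 50.8-fold (fish 245). A pituitary that did not measure npt2a was set no lower than the lowest level well above background on its array. Fish 184, whose pituitary array lacked pituitary markers, is among these males, at a bound of 8.71-fold, and fish 190, measured in both tissues, differed 8.72-fold.

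In adipose tissue npt2a was not well above background on any of 19 arrays, the unassigned one included. The processed signal ran from 0.980 to 1.33, and the background-subtracted signal was above 0 on 1 array only, that of fish 184, at 0.0341. Pubertal fish, at -7.30 ± 1.07 (SD, n = 6), and immature fish, at -7.39 ± 0.82 (SD, n = 12), were both at background, so no fold is given. This included the adipose array of fish 202, which carried germ cell markers. The processed signals were nearly constant, so the SDs above mostly follow the 75th percentile of the arrays. That percentile was 53.1 to 452 in pubertal and 60.7 to 486 in immature fish, as a processed signal. The contrast of light group E (low-fat diet) with group D in immature testes could not be read either, since npt2a was not above background on any of these 10 arrays.

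Genes whose testis profile was nearest to npt2a were ranked by the root mean square difference of values centred over the 20 testes. For npt2a 13 of these values were substituted by the scanner software, so the ranking rests in part on values without order. The 10 nearest lay between 0.76 and 1.23 on the log2 scale. They were LOC106604731, LOC106576239, ccdc152, LOC106609368, fbxo36a (an F-box protein), marcksl1b (of the MARCKS family of actin-binding proteins), zte38, LOC106581155, borea (borealin, of the complex that guides chromosomes in cell division) and LOC106608632. Their mean levels were 4.20 to 5.75 higher in pubertal testes, a range that the ranking itself favours.

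Within that set npt2a differed in 2 respects. While 8 of the 10 were well above background on all 14 immature testes, npt2a was on none. In 8 of the 10 the lowest pubertal value was in fish 184, the pubertal fish with the lowest GSI, whereas npt2a was at its second highest there. For 9 of the 10 the highest immature value was in fish 160, as for npt2a, which a ranking over the same testes also favours. LOC106576239 and LOC106609368 came closest to silence in the immature fish, each well above background on 1 immature testis, and LOC106576239 went from -7.88 to a pubertal mean of -3.14. The immature means of these genes are uncertain for that reason.

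**Figure D3:**
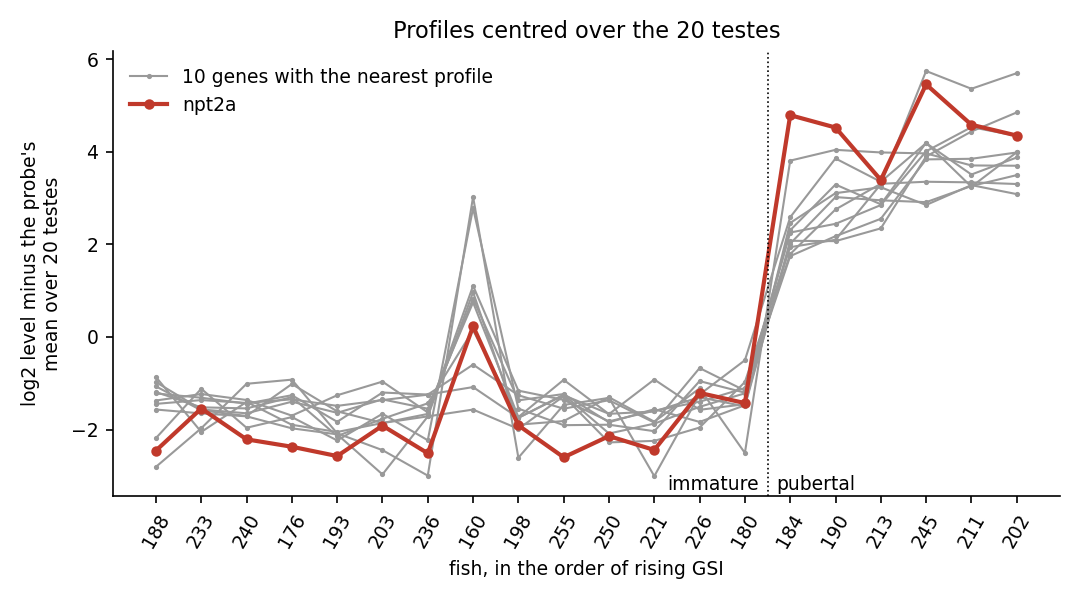
Log2 levels of npt2a (red) and of the 10 genes with the nearest profile (grey), each centred on its mean over the 20 testes, by fish in the order of rising GSI. The dotted line separates 14 immature from 6 pubertal fish. All lines step up at the line, and fish 160 rises among the immature fish for 9 of the 10 genes and for npt2a.

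On chromosome 9, the protein-coding genes on either side of npt2a in the RefSeq order were lower in pubertal testes. LOC100195412, immediately before it and well above background on 3 of 6 pubertal testes, fell by 4.15 (limma, adjusted p = 3.69e-10), and LOC106611869, immediately after it, fell by 1.09 (adjusted p = 3.60e-05). The next gene, simc1, rose by 2.13 (adjusted p = 5.60e-08). Of the 8 tested among the 5 nearest genes with a probe on each side, 1 was higher and 4 were lower, in a contrast where 59.1% of all probes were called.

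The other genes of phosphate handling were taken from 6 lists, of which 27 genes had a probe and 24 were tested in testis. Of these, 6 rose and 11 fell in pubertal testes by limma, with the same limits on adjusted p and size. Among all 35618 probes tested 59.1% were called, 31.9% higher and 27.2% lower, so a call in this contrast is common. The median difference was -0.72 over the lists and 0.29 over all probes. With the authors' processed values 2 rose and 12 fell, against 6307 and 9527 of all probes, compared with 11347 and 9697 in the main values. With normexp 5 of 24 list genes were called, against 9968 of 35618 probes. With light groups A and B alone 10 of 23 were, against 15415 of 34675 probes.

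Beside npt2a, the sodium-phosphate cotransporters had 1 probe, that of slc20a1a, which encodes the housekeeping phosphate carrier PiT-1. It ranged from -1.77 through a median of -1.06 to -0.58 in immature testes and from -2.56 to -1.38 in pubertal testes, with overlapping groups. Its mean fell by 0.85 ± 0.18 (SE, n = 14 and 6, adjusted p = 0.000234 by limma), from -1.09 to -1.94. The call was lost with quantile normalization and with median scaling (both a fall of 0.77, inside the limit of 0.8), with normexp (0.58) and within light groups A and B (adjusted p = 0.0563). In pituitary and adipose tissue slc20a1a was well above background on every array, where npt2a was measured on 2 and on none.

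Among the other carriers, ankhb, an exporter of pyrophosphate and ATP, fell by 1.88 ± 0.27 (SE, adjusted p = 3.21e-06), and slc25a24, which exchanges ATP-magnesium for phosphate across the inner mitochondrial membrane, fell by 1.97 ± 0.18 (adjusted p = 6.50e-09). For slc25a24 the values ran from 2.69 to 3.53 in immature and from 0.40 to 1.90 in pubertal testes. The lysosomal carrier slc17a5, which carries sialic acid, rose by 0.87, and slc37a4a, the glucose 6-phosphate carrier of the endoplasmic reticulum, differed by -0.59 and was not called. The slc17a5 call was lost in the authors' values (0.53), with normexp (0.74) and within light groups A and B (adjusted p = 0.155 by limma).

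The only scaffold with a probe was ezrb, an ezrin that ties membrane proteins to actin. It fell by 1.19 ± 0.18 (SE, adjusted p = 7.69e-06), from a mean of 2.66 to 1.47.

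Of 6 tested hormones and receptors, 2 rose and 2 fell, beside 31.9% and 27.2% of all probes. The risers were klb, a co-receptor for endocrine FGFs, by 1.23, and fam20b, a kinase of proteoglycan sugars, by 1.01, neither of which is known chiefly for phosphate balance. Both calls were lost in the authors' values (0.77 and 0.13), with normexp (0.37 and 0.087) and among fish of groups A and B alone (adjusted p = 0.0873 for klb and 0.123 for fam20b). The receptor fgfr1a, whose call was lost with normexp (-0.075), was well above background on 8 immature testes and on no pubertal testis. Its difference thus has only an approximate lower bound, 1.35-fold, which is inside the limit of 0.8 on the log2 scale. It counts among the falls by its measured means, which differed by -2.22 (adjusted p = 5.11e-06). In mammals galnt3 protects FGF23 from cleavage, and here it fell by 1.56 ± 0.40 (SE, adjusted p = 0.00162), with 2 of 6 pubertal testes well above background. That call was lost in the authors' values (-0.37), with normexp (-0.079) and within light groups A and B (adjusted p = 0.0692). The parathyroid hormone receptor pth3r differed by 1.17 ± 0.85 (SE, adjusted p = 0.222) and the stanniocalcin gene stc1l by 0.53, inside the limit. A second stanniocalcin gene, stc1, was well above background on 1 testis only.

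Phosphatases and kinases of phosphate sensing went both ways. The low molecular weight phosphatase acp1 rose by 1.83 ± 0.22 (SE, adjusted p = 2.64e-07) and ip6k1, which makes inositol pyrophosphates, by 1.14. The ip6k1 call was lost in the authors' values (0.72) and with normexp (0.58). Falls were seen for enpp1, which releases pyrophosphate from ATP, by 1.60, and acp5b, a tartrate-resistant acid phosphatase, by 2.39 ± 0.21 (SE, adjusted p = 3.03e-09). With normexp the calls of enpp1 (-0.66) and acp5b (-0.73) were lost. Differences for ip6k2 (-0.75) and ppip5k2 (0.66) were inside the limit.

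The sodium pump, which sets the gradient that drives phosphate uptake, had 6 tested subunits. The catalytic subunit atp1a2a rose by 1.87 ± 0.46 (SE, adjusted p = 0.00105), with 4 of 14 immature testes well above background. The call was lost in the authors' values (0.65), with normexp (0.25) and within light groups A and B (adjusted p = 0.0531). The beta subunit atp1b3b fell by 1.96 and the regulator fxyd6 by 2.95 ± 0.40 (SE, adjusted p = 1.40e-06). With normexp the atp1b3b call was lost (-0.47). The subunit atp1b4, whose call was lost with normexp (-0.23), was well above background on all immature and no pubertal testes. It was lower by an approximate bound of 3.65-fold (adjusted p = 2.34e-09 by limma for the measured means). This opposite pattern, on in all immature and off in all pubertal testes, was shown by 150 probes (0.354%). The abundant beta subunit atp1b1a, at 4.16 in immature and 3.95 in pubertal testes, differed by -0.21 ± 0.14 (SE, adjusted p = 0.176), and fxyd7 by -0.69, and neither was called.

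**Figure D4:**
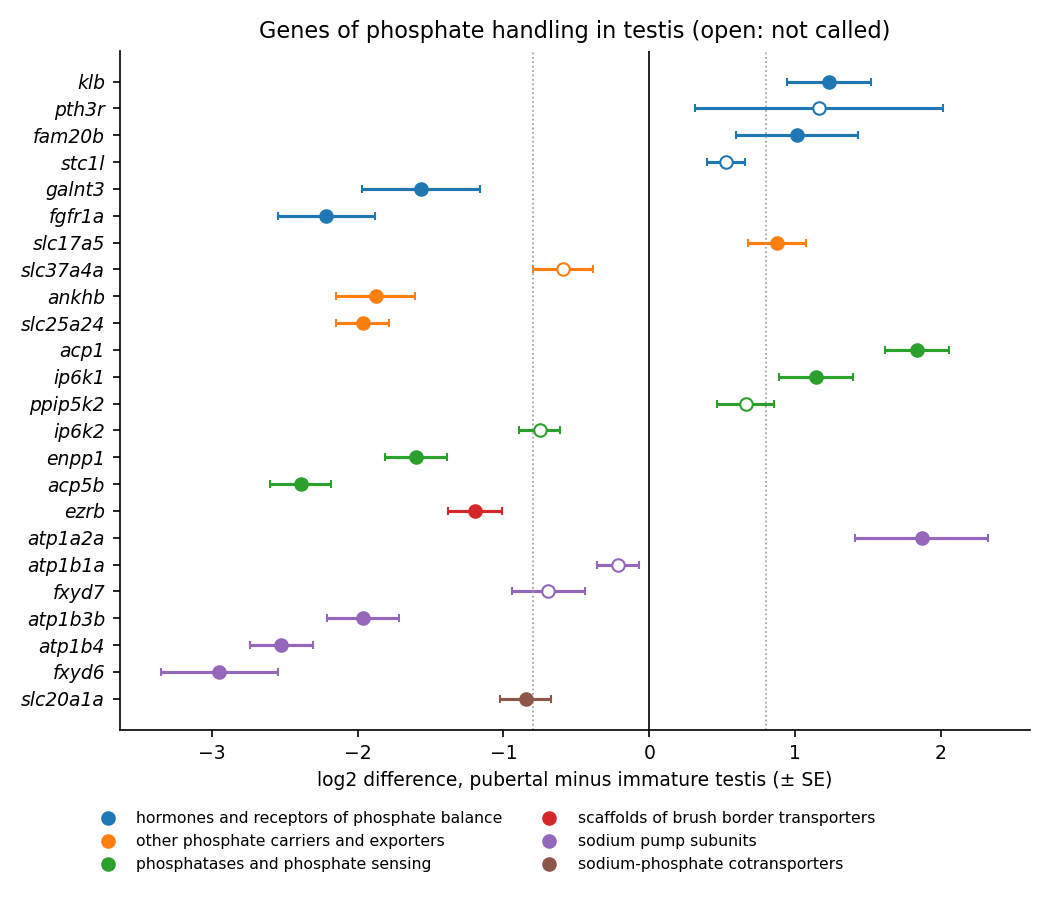
Log2 difference between pubertal and immature testes (± SE, limma, 6 and 14 fish) for the 24 tested genes of phosphate handling, coloured by list. Filled points passed an adjusted p under 0.05 and the limit of 0.8 shown by dotted lines: 6 lie to the right and 11 to the left.

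In the other comparisons none of the list genes was called. These were 0 of 24 in pituitary, where 106 of 34826 probes (0.304%) were called, and 0 of 20 in adipose tissue within light groups A and B. Between light groups E and D in immature testes it was 0 of 23. The last 2 comparisons had no call over all probes either (limma, 0% of 32892 and of 34090 probes), with 2243 and 178 probes at an unadjusted p under 0.05 and the same limit on size. An absence of calls does not show that values were alike.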

How the data were processed

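Total RNA of testis, pituitary and adipose tissue was hybridised to 1-colour Agilent salmon arrays. The deposited scanner files, made by the authors with Agilent Feature Extraction 12.0.1.1, hold linear spot intensity values that are background-subtracted and not normalized between arrays. A deposited table of the authors' processed intensity values, whose scaling and centring are not given in the sources used here, served as an alternative. It lists no value for many dim spots.

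The processed signal was divided by each array's 75th percentile over non-control spots and log2-transformed, without outlier spots, and spots of a probe were averaged. Fold changes of dim probes rest on values the scanner software substituted for non-positive signals, hence the lower bounds. All bounds use the lowest level well above background over all probes of an array, so they are approximate for a single probe. Probes well above background on a minimum number of arrays (6 in testis, 5 in pituitary, 4 in adipose tissue and 5 between light groups, the size of the smaller group) were fitted with limma 3.58.1 in R 4.3.3, with Benjamini-Hochberg adjustment over all probes tested and a log2 limit of 0.8 (1.74-fold). The adipose fit had light group as a block. The filter left npt2a out of the pituitary, adipose and light group fits, so it has no test there. The fit was tested on simulated data.

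Probes were named through RefSeq transcripts of Ssal_v3.1, by which 25420 of 42386 had a gene. Members and lists were chosen with earlier results of these data known. Named were npt2a, the 10 genes nearest to it in profile, list genes past the threshold in testis and other sodium-phosphate cotransporters. Genes of the same lists that did not pass, markers, neighbours and probes sharing the on and off pattern were named after their values were seen. Fish were put in order of GSI as the study's histology table lists them. Scan days were numbered 1 to 4 from the file headers. Alternatives were other background corrections, normalizations, filters, tests, blocks and fish left out.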

Additional observations from a re-analysis of the deposited data

Results flagged for a closer look

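The gap between the lowest and the next pubertal testis for ip6k1, at -2.21 in fish 213, was 0.642 of the group's whole range, above the 95% limit for 6 samples. Fish 213 is also the pubertal testis with the lowest npt2a. Of 22 groups of values checked in this way 1 stood apart, and chance gives about 1 in 20. No pubertal group of npt2a, in testis, pituitary or adipose tissue, had such a gap.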

How the results depend on the processing

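The npt2a difference between pubertal and immature testes (6.45) kept its direction under every alternative tried. It was 1.33 with normexp, 4.02 in the authors' processed values and 7.29 on the arrays of scan day 4, and 6.26 to 6.68 with a pubertal fish left out. The lower bound (4.55) was 1.30 with normexp, 3.84 in the authors' processed values and 4.36 to 4.78 with a pubertal fish left out. Scan day as a block, slide as a random block, quantile or median scaling and leaving out fish 160 and 250 gave differences of 6.31 to 6.61. No second probe of npt2a was on the array. Fits without the filter on dim probes give no reading of npt2a outside testis, since 2 pituitary arrays and no adipose array measured it.

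In testis, 21044 of 35618 probes were called, 9968 of 35618 with normexp and 15415 of 34675 within light groups A and B. The list genes called numbered 17 of 24, with 5 of 24 under normexp and 10 of 23 within light groups A and B. Of 198 repeats for named list genes, 172 kept their call, 26 lost it and 0 reversed. The repeats with limma at an unadjusted p could not lose a call, since the differences were the same. Repeats in which a gene was filtered out or had no difference, as fgfr1a within light groups A and B, were not counted. Of the lost calls 12 fell under normexp, 6 under the authors' values and 6 within light groups A and B, and the cause was not tested. The median of all probes moved from 0.29 to 0.16 with quantile normalization and to -0.0031 in the authors' values.

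In pituitary, 106 probes were called, 44 with normexp, 529 by the methods' t-test, 578 at an unadjusted p, 2 within light groups A and B, 5 with scan day as a block, 19 with fish 184, 303 without fish 160 and 250 and 0 on scan day 1 alone. It was 2, 26, 32, 41 and 115 without fish 211, 202, 190, 245 and 213 in turn. In adipose tissue 0 became 1227 by the methods' t-test and 2243 at an unadjusted p. Between light groups 0 became 106 and 178, and 0 to 2 with a fish left out. The alternatives planned for npt2a in pituitary, adipose tissue and between light groups gave no value where the filter was kept.

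Signal over background limits these data. The lowest level well above background was -7.06 to -5.22 across testes, and below it values of npt2a are uncertain, that of fish 160 included, while those substituted for negative signals have no order. Only 1 probe measured the gene, and whether related transcripts add to its signal was not tested. The number of pubertal fish, 6, limits precision.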
